A study of Mus musculus with 11 samples.

Results

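Purified haematopoietic stem cells (HSCs) of mouse bone marrow were profiled by ATAC-seq, an assay that reads out open chromatin from the places where a transposase can cut and tag DNA. The peaks described here are the flanks of promoters: those whose nearest edge lies more than 1 kb and at most 3 kb from the transcription start site that the authors' annotation assigned to them, on either side. They were chosen by position alone, as the peaks annotated at 1 to 2 kb or 2 to 3 kb, and number 4788 of 94410 peaks (5.07%), assigned to 4093 genes. Of them 2742 lay at 1 to 2 kb and 2046 at 2 to 3 kb.

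Old AThi HSCs came as 3 libraries, old ATlo HSCs as 3 libraries and young HSCs as 5 libraries. Both old fractions came from the same isolations, with replicate pairs numbered 1 to 3, and were separated by GFP: AThi cells had low GFP and were those engaging autophagy, and ATlo cells had high GFP. Young HSCs were not fractionated. All groups, young included, carried Gfplc3/Gfplc3, a reporter in which GFP is fused to the autophagosome protein LC3 and is degraded as autophagy proceeds, and all were isolated at steady state. Cells were isolated and transposed over 2 days. The day, sex, age in numbers and number of animals behind each library are not stated in the sources used here. Each p-value therefore reflects the spread among these libraries, and age, fractionation, sex and day cannot be told apart in the comparisons with young HSCs.

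Promoters are the stretches of DNA where transcription starts, and in active genes their core is kept free of nucleosomes. The flanks hold the first exon and intron on the downstream side, where elongating polymerase and intronic enhancers can open chromatin, and upstream elements on the other side. In short genes the downstream flank reaches the gene's end. Immediate early genes such as Fos and Jun are short, are transcribed within minutes of a stimulus and encode or control AP-1, a dimeric transcription factor that acts at enhancers.

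Of 7 immediate early genes with this pattern, the start-site sequences of the AP-1 subunits and of Dusp1 are shown because their downstream flanks were more accessible in old AThi HSCs while their strongest peak within 1 kb of the start did not pass the test. Each is the RefSeq GRCm38.p6 sequence from 250 bases before the start to 50 bases after it, on the gene's strand. Capitals mark the cyclic AMP response element TGACGTCA, its half-site TGACG and the TATA box TATAAA on either strand.
Fos (chr12:85473640-85473939, plus strand): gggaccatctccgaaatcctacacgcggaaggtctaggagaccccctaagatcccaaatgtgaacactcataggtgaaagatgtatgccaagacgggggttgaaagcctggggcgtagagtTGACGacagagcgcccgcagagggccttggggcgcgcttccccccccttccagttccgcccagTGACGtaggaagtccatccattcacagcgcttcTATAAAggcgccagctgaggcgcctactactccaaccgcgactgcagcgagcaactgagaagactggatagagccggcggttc
Fosb (chr7:19309996-19310295, minus strand): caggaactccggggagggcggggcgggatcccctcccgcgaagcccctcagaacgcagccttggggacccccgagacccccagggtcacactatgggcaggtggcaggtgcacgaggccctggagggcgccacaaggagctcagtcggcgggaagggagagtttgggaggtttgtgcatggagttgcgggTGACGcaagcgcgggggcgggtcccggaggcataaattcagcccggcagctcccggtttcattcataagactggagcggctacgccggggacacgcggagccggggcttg
Jun (chr4:95052173-95052472, minus strand): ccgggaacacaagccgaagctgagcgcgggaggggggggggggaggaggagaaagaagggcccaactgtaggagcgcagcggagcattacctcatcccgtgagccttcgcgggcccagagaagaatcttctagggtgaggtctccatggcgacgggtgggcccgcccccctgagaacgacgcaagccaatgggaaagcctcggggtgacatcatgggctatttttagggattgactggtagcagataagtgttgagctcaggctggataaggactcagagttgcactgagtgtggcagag
Junb (chr8:84978699-84978998, minus strand): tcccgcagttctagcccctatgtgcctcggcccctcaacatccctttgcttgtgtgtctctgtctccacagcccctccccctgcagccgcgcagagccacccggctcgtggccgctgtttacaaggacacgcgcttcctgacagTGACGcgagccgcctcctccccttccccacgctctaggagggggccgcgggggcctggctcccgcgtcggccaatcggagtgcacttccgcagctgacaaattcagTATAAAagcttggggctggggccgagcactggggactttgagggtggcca
Dusp1 (chr17:26508423-26508722, minus strand): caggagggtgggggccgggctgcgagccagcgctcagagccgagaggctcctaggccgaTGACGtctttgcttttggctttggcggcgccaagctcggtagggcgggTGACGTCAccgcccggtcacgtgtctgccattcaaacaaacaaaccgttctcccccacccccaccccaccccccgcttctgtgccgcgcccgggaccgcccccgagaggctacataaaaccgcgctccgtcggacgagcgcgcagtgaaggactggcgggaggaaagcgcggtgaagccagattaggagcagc

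Searched on both strands, the full element TGACGTCA was found in Dusp1 alone among these 5 windows, 143 bases before the start, and in 1.79% of all 32851 start-site windows. The half-site TGACG, which overlaps the full element, was found in Fos, Fosb, Junb and Dusp1 and in 20.8% of all windows. TATAAA lay 33 bases before the start of Fos and 1 base after that of Junb, and in 13.6% of all windows. The AP-1 motif TGANTCA and the CArG box were in none of the 5 windows, against 7.81% and 1.63% of all windows. The sequences of the flank peaks themselves are not shown, since no genome of their build was used.

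The authors deposited 1 table per comparison with a mean normalised read count, a log2 fold change, its standard error (SE) and p-values per peak, so values per library cannot be given. A peak is called higher or lower here where the authors' adjusted p is under 0.05. At promoters within 1 kb, the authors' deposited tables held a peak for 12 of 13 HSC markers (all but Ly6a), with a median mean count of 193, and for 4 of 7 lymphoid, 3 of 6 myeloid, 6 of 6 megakaryocyte and erythroid, and 6 of 7 stromal and endothelial markers, with medians of 12.9, 58.7, 212 and 84.2. Cd79a, Pax5, Cd3e, Mpo, Elane, Csf1r and Cdh5 had no such peak. These levels are means over all libraries, so how they vary between groups could not be given.

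The flank peaks were narrow and weak beside the promoters they surround. Their median width was 455 bp (204 to 2932 bp), against 1057 bp for promoter peaks within 1 kb and 547 bp for all peaks. Their median mean count in the authors' deposited tables was 35.3, with the middle 50% of peaks from 19.7 to 65.8, against 122 at promoters within 1 kb, 21.2 in introns and 27.5 over all peaks. The median distance of the near edge was 1843 bp. Of the peaks, 2757 lay downstream of the start, 2499 of them within the assigned gene and 258 past its end, and 2031 lay upstream. Most genes (3489) had 1 flank peak, 523 had 2, 71 had 3 and 10 had 4. The next peak lay at a median of 1420 bp, against 4840 bp for all peaks, so flank peaks are close neighbours of other peaks. Protein-coding genes held 3947 flank peaks, lncRNA genes 554 and microRNA genes 205.

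In old AThi HSCs, 473 of the 4755 flank peaks with an adjusted p (9.95%) differed from young HSCs, against 10.3% of all 92579 peaks with one. The 294 higher flank peaks (6.18%, against 7.57% of all peaks) lay at 287 genes, and the 179 lower ones (3.76%, against 2.74%) at 177 genes. At a change of at least 2-fold, 183 were higher (3.85%, against 4.99% of all peaks) and 90 lower (1.89%, against 1.11%). In old ATlo HSCs, 374 flank peaks (7.87%, against 9.42% of all peaks) differed from young HSCs, 256 of them higher (5.38%, against 6.88%) at 249 genes and 118 lower (2.48%, against 2.54%) at 114 genes. At least 2-fold changes numbered 164 higher (3.45%, against 4.49%) and 39 lower (0.820%, against 0.572%). The share called in either direction was near that of all peaks, the share higher was below it in each case, and the share lower was above it except for all lower calls in ATlo HSCs. These differences from all peaks were not tested. The median higher call was 1.18 on the log2 scale in AThi HSCs and 1.13 in ATlo HSCs, and the median lower call -1.0 and -0.75. Over all members the median log2 change was -0.09 in AThi and -0.08 in ATlo HSCs, against -0.04 and -0.03 over all peaks. The 2 comparisons share the young libraries, so their likeness is no separate evidence. In bulk libraries such as these, a change in which cells were present and a change in accessibility per cell cannot be told apart.

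Higher calls made up 62.2% of the flank calls in AThi HSCs and 68.4% in ATlo HSCs. This split depends on the scaling: the strongest promoter peaks had a median log2 change of -0.22 in AThi and -0.31 in ATlo HSCs, and with that median set to 0 the flank calls were 542 higher and 72 lower in AThi (88.3% higher) and 679 higher and 23 lower in ATlo HSCs (96.7% higher). With the median of all peaks set to 0, 69.8% of calls were higher in AThi and 74.9% in ATlo HSCs. As deposited, promoters within 1 kb had 61.4% of their calls higher in AThi and 45.6% in ATlo HSCs, introns 77.5% and 84.4%, and distal regions 79.2% and 84.1%. Flank peaks therefore lay between promoters and introns in this split in ATlo HSCs and next to promoters in AThi HSCs.

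Between the old fractions, 0 of 4788 flank peaks passed in AThi against ATlo HSCs by the authors' DESeq2 test, as for all 94410 peaks (0% called), with a smallest adjusted p of 0.999998 in the authors' deposited table. At an unadjusted p under 0.05 there were 100 flank peaks (2.09%), 35 higher and 65 lower in AThi HSCs, against 1683 of all peaks (1.78%). Both shares are below the 5% that evenly spread p-values would give. Whether the authors' fit took the pairing of the old libraries into account is not given in the sources used here, and no paired test could be run. The lowest p-values in the authors' deposited table were at a peak 1228 bp upstream of Ints1, a subunit of the Integrator complex (log2 -0.78, p = 0.00199 in DESeq2), and 1077 bp downstream of the start of Clic5, a chloride intracellular channel family member (1.27, p = 0.00231 in DESeq2). Further peaks with low p-values were higher in AThi HSCs at Zfp503 (0.43), Ern1 (0.71), Ccr10 (0.53) and Srsf3 (0.63) and lower at Trim67 (-1.45), Prxl2c (-0.67), Rmnd5a (-0.93) and Casp12 (-0.76), none of which passed.

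Predicted and microRNA genes aside, the smallest p-values among gains in AThi HSCs were at Ccdc177 and Hmx1. Per the authors' deposited tables, the peak 1471 bp into Ccdc177, a coiled-coil protein gene (chr12:80805588-80806018, mm39), was 4.72-fold higher in AThi than young HSCs (log2 2.24, SE 0.25, adjusted p = 7.55e-16 by DESeq2) and 3.35-fold higher in ATlo than young HSCs (1.74, SE 0.26, adjusted p = 2.53e-09). Hmx1, a homeobox factor of eye and ear development, had a peak 2851 bp into the gene (chr5:35549056-35549780) that was 4.69-fold higher in AThi HSCs (log2 2.23, SE 0.26) and 4.15-fold higher in ATlo HSCs (2.05, SE 0.26). At St6galnac4, a sialyltransferase, the authors' deposited tables gave the peak 2341 bp into the gene (chr2:32479431-32479779) as 5.97-fold higher in AThi and 5.03-fold higher in ATlo HSCs. The strongest promoter peak of St6galnac4 did not pass in either (log2 -0.33 in AThi and -0.34 in ATlo HSCs). Adra2c, an alpha-adrenergic receptor (2.37 in AThi and 2.32 in ATlo HSCs), Wfdc3, a WAP-domain protein (2.13 and 1.97), Cyp26c1, a retinoic acid hydroxylase (2.18 and 1.55), and Hjv, the hemojuvelin co-receptor of iron metabolism (1.83 and 1.59), also had higher peaks past their starts and no promoter peak within 1 kb.

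Other named gains were found on both sides of the start. The authors' deposited tables gave higher values in both old fractions at Barx2, a homeobox factor (1.82 in AThi and 1.44 in ATlo HSCs), Fev, an ETS factor of serotonergic neurons (1.61 and 1.46), Sdk2, a synaptic adhesion protein (1.82 and 1.41), Shc3, an adaptor of neurons (1.58 and 1.64), and Gprc5d, an orphan receptor known from plasma cells (2.11 and 1.59). At Ntn1, which encodes the guidance cue netrin-1, and Fam83g the promoter peaks were higher too in the authors' deposited tables: at Ntn1 the flank changed by 1.46 in AThi and 1.30 in ATlo HSCs and the promoter by 2.20 and 1.66, and at Fam83g the flank by 1.45 and 1.61 and the promoter by 1.32 and 1.14.

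**Figure D1:**
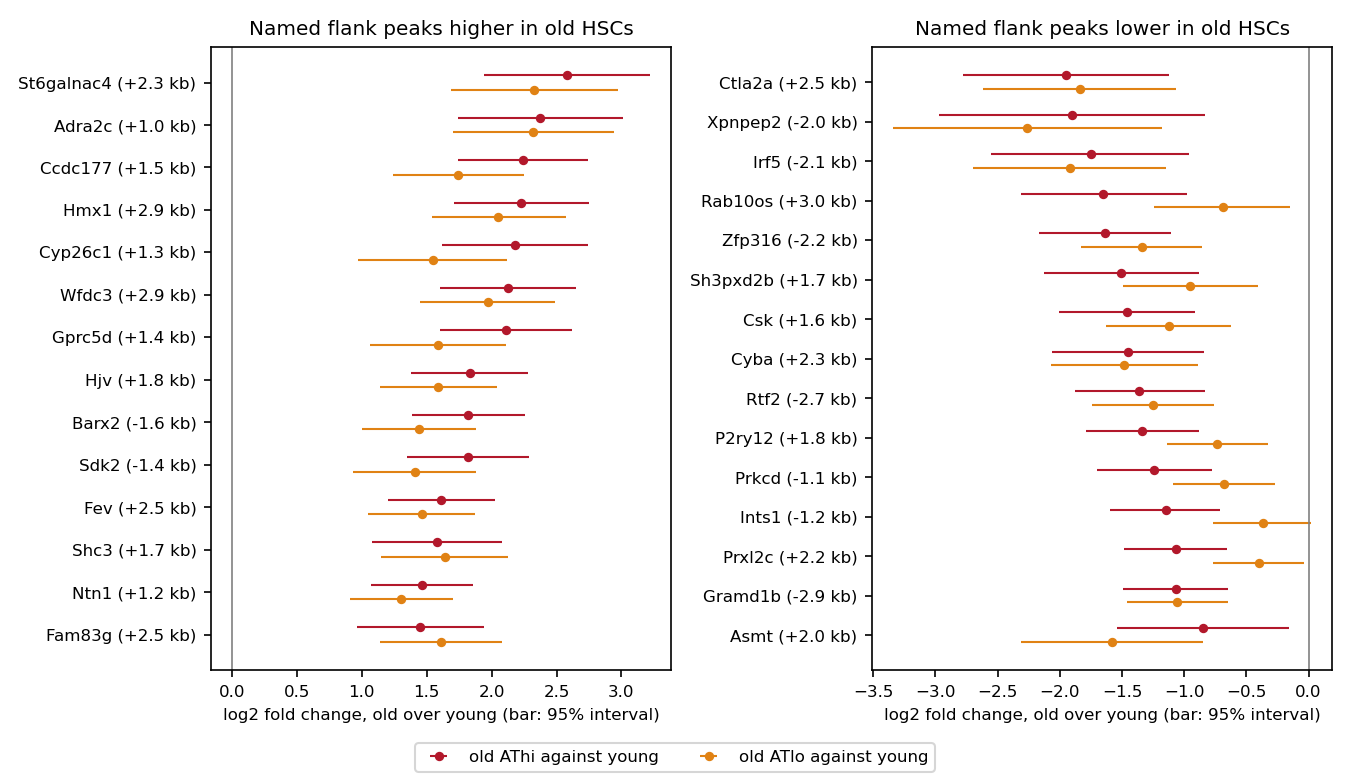
Log2 fold change of the named flank peaks in old AThi and old ATlo against young HSCs, with 95% intervals as bars and the distance from the start in kb after each gene name (plus for downstream, minus for upstream). At Ccdc177 the change was 2.24 in AThi and 1.74 in ATlo HSCs, at Zfp316 it was -1.64 and -1.34, and the interval of Ints1 in ATlo HSCs is the one among these peaks that crosses 0.

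With the same genes set aside, the smallest p-values among losses in AThi HSCs were at Zfp316 and P2ry12. Per the authors' deposited tables, a peak 2216 bp upstream of Zfp316, a zinc finger gene (chr5:143257993-143258937, mm39), changed by -1.64 on the log2 scale in AThi HSCs (SE 0.27, adjusted p = 1.14e-07 by DESeq2) and by -1.34 in ATlo HSCs (SE 0.25, adjusted p = 4.09e-06), each against young HSCs. The peak 1776 bp into P2ry12, the ADP receptor of platelets, which lies within the span of Med12l, changed by -1.34 in AThi and by -0.74 in ATlo HSCs. Upstream of Prkcd, a protein kinase C, the change was -1.24 in AThi and -0.68 in ATlo HSCs, and inside Csk, the kinase that restrains Src kinases, -1.46 and -1.12. Cyba, a subunit of the phagocyte NADPH oxidase, changed by -1.45 and -1.48, Irf5, an interferon regulatory factor, by -1.75 and -1.92, and Ctla2a, a cysteine protease inhibitor, by -1.95 and -1.84. Gramd1b, a cholesterol transporter (-1.07 and -1.06), Rtf2, a replication termination factor (-1.36 and -1.25), and Sh3pxd2b, an adaptor of podosomes (-1.51 and -0.95), were lower in both in the authors' deposited tables. Xpnpep2, an aminopeptidase, was lower in both as well (-1.90 and -2.26).

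With the strongest promoters set to 0, the ATlo losses at P2ry12, Prkcd and Sh3pxd2b no longer passed.

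Some losses passed in a single old fraction. Ints1 (-1.15 in AThi and -0.37 in ATlo HSCs), Prxl2c (-1.07 and -0.40) and the lncRNA Rab10os (-1.65 and -0.69) passed in AThi HSCs alone in the authors' deposited tables, and Asmt, an enzyme of melatonin synthesis (-0.85 and -1.58), in ATlo HSCs alone. None of these peaks differed between AThi and ATlo HSCs in the direct test, so they are not shown to differ between the fractions. The largest fall of any called flank peak was at Xist, the RNA that coats the inactive X chromosome in female cells, named after its value was seen. Its peak 1051 bp past the start changed by -5.38 in AThi HSCs (SE 1.56, adjusted p = 0.00927 by DESeq2) and by -4.65 in ATlo HSCs (SE 1.45, adjusted p = 0.0206) in the authors' deposited tables, and its promoter peak by -6.79 in AThi HSCs and -3.41 in ATlo HSCs (adjusted p = 0.340 by DESeq2, which did not pass). The 21 peaks on the Y chromosome had a median log2 change of 0.52 in AThi and 0.35 in ATlo HSCs, and 0 of them were called. The part of sex in the other results was not tested. Without the 105 flank peaks on X (Y held 0), the calls were 290 higher and 175 lower in AThi and 252 higher and 110 lower in ATlo HSCs.

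AP-1 and immediate early genes had higher flank peaks at Fos, Jun, Dusp1, Egr1 and Ier2 in both old fractions. Their 31 genes held 29 flank peaks at 19 genes. In AThi HSCs 8 peaks at 7 genes were higher and 0 lower, and in ATlo HSCs 6 at 5 genes were higher and 1 lower, with a median over the 29 of 0.05 and 0.00. The higher peaks were 27.6% of the 29 in AThi and 20.7% in ATlo HSCs, beside 6.18% and 5.38% of all flank peaks. All 8 calls in AThi HSCs and the 6 higher calls in ATlo HSCs were among the 18 downstream peaks, whose median was 0.36 in AThi and 0.28 in ATlo HSCs. Of the 11 upstream peaks, 0 were called in AThi HSCs (log2 -0.43 to 0.06) and 1 was called lower in ATlo HSCs, at Nr4a3 (-0.44), a call lost when either the strongest promoters or all peaks were set to a median of 0. With the strongest promoters at 0, 11 of the 29 were higher in AThi and 12 in ATlo HSCs, and 0 lower in either.

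The promoter peaks of the same 19 genes were not among the higher calls. For each gene the strongest peak within 1 kb was taken, and 0 were called in AThi HSCs (median -0.19, from -0.43 to 0.20) and 2 were called lower in ATlo HSCs (median -0.29). At Fos, an AP-1 subunit, the peak 2324 bp past the start (chr12:85522988-85523373, mm39) was 2.17-fold higher in AThi (log2 1.12, SE 0.18, adjusted p = 2.4e-08 by DESeq2) and 1.84-fold higher in ATlo than young HSCs (0.88, SE 0.18, adjusted p = 3.42e-05) in the authors' deposited tables. The Fos promoter peak changed by -0.14 in AThi HSCs (SE 0.17, adjusted p = 0.702 by DESeq2) and -0.28 in ATlo HSCs, and the peak 1493 bp upstream by 0.06 and 0.00. The Fos gain was thus on the downstream side, in sequence that the 300-base window printed above does not cover.

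Jun, the partner of Fos in AP-1, had 3 downstream flank peaks. Among them, in the authors' deposited tables, the one at 1300 bp did not pass (0.28 in AThi and 0.27 in ATlo HSCs), the one at 1977 bp was higher (1.06, SE 0.18, in AThi and 0.71, SE 0.18, in ATlo HSCs) and so was the one at 2592 bp (1.16, SE 0.34, and 1.23, SE 0.34). The Jun promoter changed by -0.38 in AThi HSCs (adjusted p = 0.0756 by DESeq2) and -0.36 in ATlo HSCs (adjusted p = 0.101). Fosb, another Fos family member, showed the same order by distance without passing at the nearer peaks: 0.05 at 1199 bp, 0.34 at 1510 bp and 0.49 (called) at 2019 bp in AThi HSCs, against -0.03, 0.28 and 0.37 in ATlo HSCs, none of which passed. Its promoter changed by -0.30 in AThi HSCs and by -0.53 in ATlo HSCs (adjusted p = 0.0235 by DESeq2) in the authors' deposited tables.

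The other members with higher downstream peaks were Dusp1, the phosphatase that switches off MAP kinases, Egr1, a zinc finger factor, Ier2, an immediate early response gene, and Junb. In the authors' deposited tables Dusp1 changed by 0.91 (SE 0.17) in AThi and 0.58 in ATlo HSCs at 2103 bp, and its promoter by 0.20 and -0.10. Egr1 changed by 0.75 (SE 0.16) in AThi and 0.79 in ATlo HSCs at 1717 bp, and its promoter by -0.12 and -0.26. Ier2 changed by 0.53 in AThi and 0.49 in ATlo HSCs at 2254 bp, past the gene's end, by -0.08 and -0.17 at 1077 bp upstream and by -0.05 and -0.14 at 2014 bp upstream, and its promoter by -0.37 and -0.41. Junb changed by 0.42 in AThi HSCs, which passed, and 0.29 in ATlo HSCs, which did not, at 1269 bp, and its strongest peak within 1 kb, 814 bp upstream, by -0.10 and -0.19. Downstream peaks that did not pass were found at Klf4 (0.19 in AThi and 0.20 in ATlo HSCs), Klf6 (0.03 and 0.03 for the nearer), Nr4a1 (0.05 and -0.07), Mafk (-0.22 and -0.17) and Zfp36 (0.37 and 0.32) among others. The difference between a flank peak and the promoter peak of its gene was not tested, since the covariance of the 2 changes is not known. A shift common to all peaks leaves that difference as it is, but one that varies with mean count does not. The strongest promoters had a median of -0.22 in AThi and -0.31 in ATlo HSCs, and all peaks -0.04 and -0.03. The promoter medians of these 19 genes, -0.19 in AThi and -0.29 in ATlo HSCs, lay near those of the strongest promoters.

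**Figure D2:**
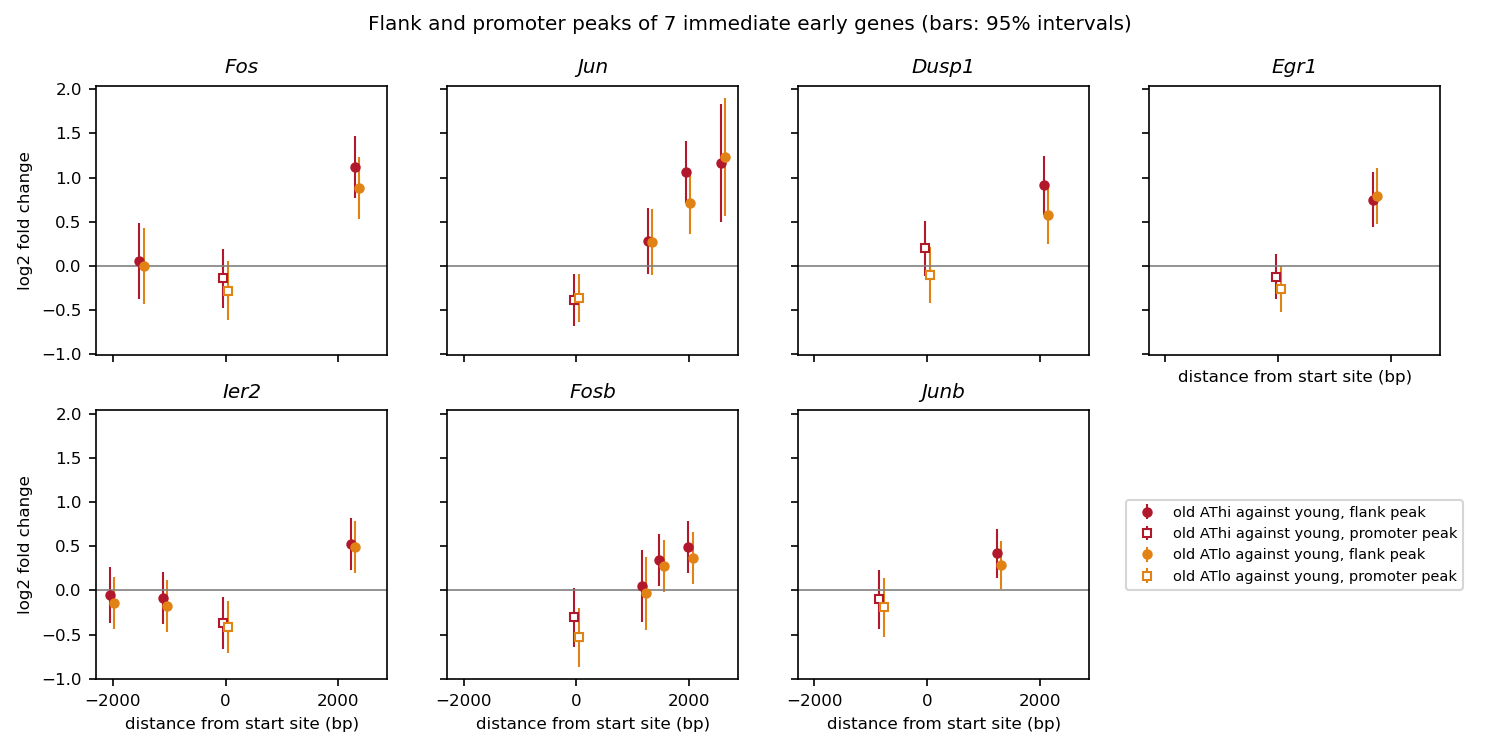
Log2 fold change in old AThi and old ATlo against young HSCs at flank peaks (filled circles) and at the strongest promoter peak within 1 kb (open squares) of 7 immediate early genes, by distance of the peak's near edge from the start in bp (0 where the peak covers the start), with 95% intervals as bars. Downstream peaks of Fos (1.12 and 0.88) and Jun (1.06 and 0.71 at 1977 bp) sit above 0, and the squares sit near or below 0, from -0.38 to 0.20 in AThi HSCs.

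Calls at flank peaks were also set beside calls at the promoter of the same gene. Of the flank peaks, 3272 at 2760 genes belonged to a gene that also had a peak within 1 kb. In AThi HSCs 166 of them were higher, and the gene's strongest promoter peak was higher in 25 cases, lower in 3 and not called in 138 (83.1%). Of 138 lower flank peaks, the promoter was lower in 18, higher in 6 and not called in 114 (82.6%). In ATlo HSCs 145 were higher, with 20 promoters higher, 4 lower and 121 not called (83.4%), and 98 were lower, with 21 promoters lower, 7 higher and 70 not called (71.4%). Over all 3272 flank peaks, whatever their own call, 86.5% had a promoter that was not called in AThi and 85.9% in ATlo HSCs, so the shares beside called flank peaks are near or below this background. Of the flank peaks beside a higher promoter 89.2% were not called in AThi and 87.6% in ATlo HSCs, and of those beside a lower one 86.4% and 89.8%, against 90.7% and 92.6% of all 3272. Over the 3272 peaks the log2 changes of flank and promoter had Pearson's r = 0.26 and Spearman's rho = 0.25 in AThi HSCs, and 0.25 and 0.23 in ATlo HSCs. These correlations are across peaks of the same libraries, which are not independent, and flank peaks had lower counts than their promoters (median 39.1 against 127).

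**Figure D3:**
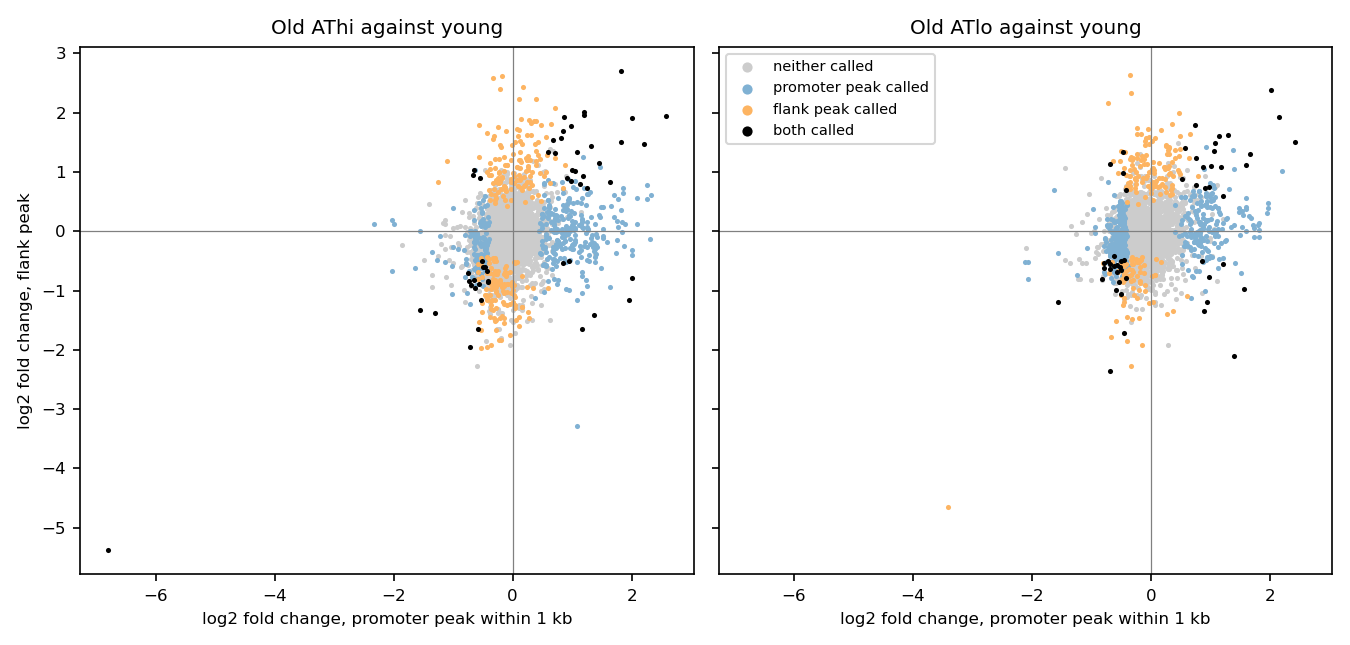
Log2 fold change of flank peaks (vertical axis) against that of the strongest promoter peak of the same gene (horizontal axis), in old AThi against young HSCs on the left and old ATlo against young HSCs on the right, coloured by which of the 2 peaks was called. Shown are those of the 3272 flank peaks whose gene has a symbol. Over all 3272, 138 of the 166 higher flank peaks in AThi HSCs were called without their promoter (orange). The point far to the lower left in AThi HSCs is Xist (-5.38 at the flank and -6.79 at the promoter).

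Some genes had called changes in opposite directions at flank and promoter, and all are named here after their values were seen. At Kcnk12, a potassium channel, the authors' deposited tables gave -1.15 (SE 0.27) in AThi and -0.98 in ATlo HSCs at 1200 bp past the start. Its strongest peak within 1 kb, which lay 650 bp downstream of the start, changed by 1.96 and 1.56, and all of these were called. At Zfp316 the promoter rose by 1.17 in AThi and 0.90 in ATlo HSCs while the upstream flank fell. Rab19, a small GTPase (-0.50 in AThi and -0.51 in ATlo HSCs at the flank, 0.95 and 0.86 at the promoter), and the predicted gene Gm4262 (-0.53 and -0.56, against 0.85 and 1.20) had the same pattern in both. Gpr25 (-1.41 at the flank and 1.37 at the promoter) and Spire1 (-0.79 and 2.01) had both calls in AThi HSCs alone, and Hr (-1.19 and 0.93), Lin28a (-2.11 and 1.39) and Kcnn1 (-0.77 and 0.97) in ATlo HSCs alone. None of these peaks differed between AThi and ATlo HSCs in the direct test. The Spire1 flank changed by -0.70 in ATlo HSCs, which did not pass. Mean counts were low at the flanks of Gpr25 (14.4) and Lin28a (9.38), and the Lin28a promoter peak lay 992 bp downstream of the start.

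The reverse, a higher flank beside a lower promoter, was called at Nt5c3, a nucleotidase, in both (0.90 in AThi and 0.99 in ATlo HSCs at the flank, -0.55 and -0.48 at the promoter). It was called in AThi HSCs at Slc6a6, the taurine transporter (1.03 at the flank and -0.65 at the promoter), and Snapc2, a subunit of the snRNA-activating complex (0.94 and -0.66). In ATlo HSCs it was called at Tnfaip3, an inhibitor of NF-kB (1.13 and -0.68), Cds2 (1.33 and -0.47) and Cic, a repressor downstream of Ras signalling (0.70 at 1618 bp upstream and -0.42). Under the scaling that sets the strongest promoters to 0, promoter values rise by 0.22 in AThi and 0.31 in ATlo HSCs. The calls of these lower promoters were not run again under it. Their SEs were 0.14 to 0.19, so the rise exceeds 1 SE at each, and these lower promoter calls are not shown to hold apart from the scaling. Under the same scaling the lower flank calls of Rab19 and Gm4262 were lost in both old fractions. Those of Gpr25 and Spire1 were lost in AThi HSCs and those of Kcnk12, Hr and Kcnn1 in ATlo HSCs.

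A further 4 genes had flank peaks called both ways in AThi HSCs, and 0 genes did in ATlo HSCs. In the authors' deposited tables Cic changed by 1.23 at 1618 bp upstream and by -0.82 at 1901 bp downstream. Kcnj9, a potassium channel, changed by 0.99 downstream and -1.99 upstream, Mbnl1, a splicing factor, by 0.59 at 1577 bp and -1.20 at 2979 bp, both upstream, and Micall2 by 0.86 upstream and -0.50 downstream. Distances are to the start site assigned to each peak, so peaks of 1 gene can refer to different start sites. The lower calls of Cic and Micall2 in AThi HSCs were lost with the strongest promoters set to 0.

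The direction of the calls was also counted by whether the gene had a promoter peak. The 1516 flank peaks at 1333 genes without a peak within 1 kb had 128 higher and 41 lower calls in AThi HSCs (75.7% higher) and 111 higher and 20 lower in ATlo HSCs (84.7% higher). Those at genes with one had 166 higher and 138 lower in AThi (54.6% higher) and 145 higher and 98 lower in ATlo HSCs (59.7% higher). In either direction, 11.3% of tested flank peaks were called in AThi and 8.78% in ATlo HSCs without a promoter peak, and 9.32% and 7.45% with one. Median mean counts were 26.4 without and 39.1 with a promoter peak, and the difference between these groups was not tested. By gene type, lncRNA genes had 41 higher and 15 lower flank peaks in AThi and 38 and 13 in ATlo HSCs. Protein-coding genes had 228 and 154 in AThi and 200 and 96 in ATlo HSCs. At lncRNA genes 10.3% of tested flank peaks were called in AThi and 9.34% in ATlo HSCs, and at protein-coding genes 9.73% and 7.54%. Over all flank peaks the shares were 9.95% and 7.87%, and these differences were not tested.

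The share called was close to the overall share at all distances. At 1 to 2 kb 9.78% of peaks were called in AThi and 8.12% in ATlo HSCs, and at 2 to 3 kb 10.2% and 7.52%. Upstream peaks were called in 10.5% of cases in AThi and 8.09% in ATlo HSCs, and downstream peaks in 9.56% and 7.70%. In bins of 500 bp the share called higher in AThi HSCs was between 5.74% and 6.75% and the share called lower between 2.48% and 5.19%. At the limits themselves, the authors' deposited tables gave Sox12 (-0.48 in AThi and -0.29 in ATlo HSCs) and Pax8 (1.77 and 1.39) at 1001 bp just inside, and Ptma (-0.68 and -0.78) and Mir10b (1.40 and 1.15) at 1000 bp just outside. At the outer limit Xkr5 (-0.30 and -0.15) and Btbd16 (-0.11 and -0.12) lay inside at 3000 bp, and Spire1 (-1.06 and -0.48) and Msx1os (0.89 and 0.86) outside at 3001 and 3002 bp.

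**Figure D4:**
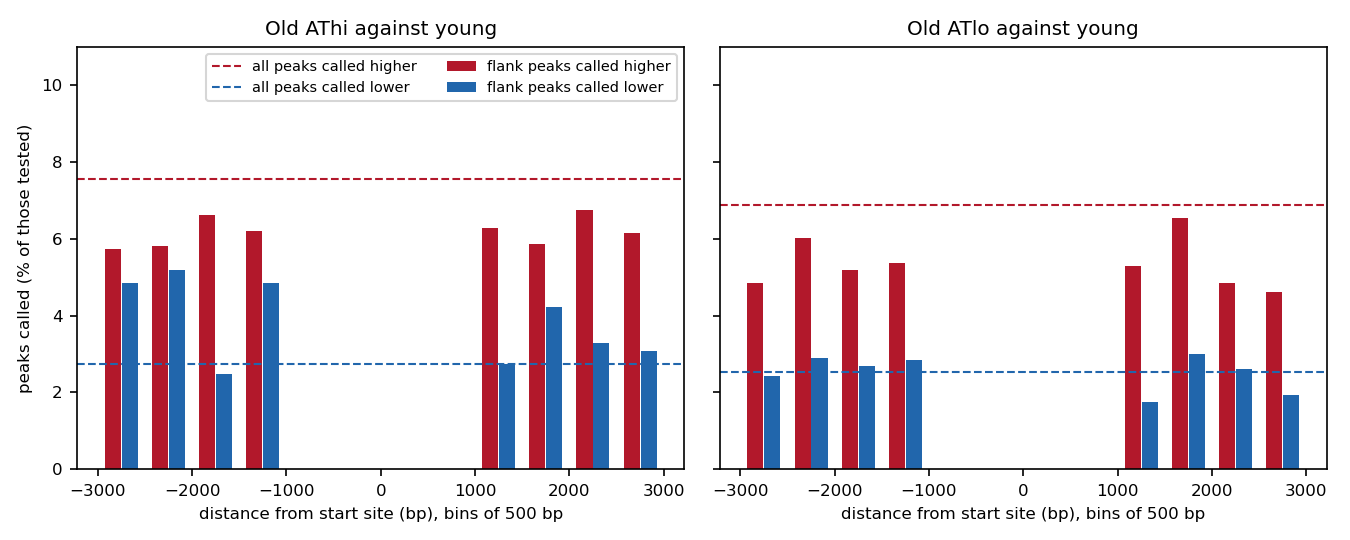
Share of tested flank peaks called higher (red) and lower (blue) in old AThi (left) and old ATlo (right) against young HSCs, by distance from the start in bins of 500 bp, negative upstream, with the shares of all peaks as dashed lines (7.57% higher and 2.74% lower in AThi, 6.88% and 2.54% in ATlo). The bars for higher calls stay below the dashed red line at every distance.

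Peaks with the lowest counts were called least often, so flank peaks were also set beside other peaks of like mean count. With all peaks split by mean count into 4 bins of equal size, in the highest bin (above 66.6), 8.38% of flank peaks were higher in AThi HSCs, against 9.43% of other peaks, and 5.08% lower, against 5.23%. In the next bin (27.5 to 66.6) 7.27% were higher, against 11.4%, and 4.01% lower, against 2.47%. In ATlo HSCs the highest bin had 6.35% higher, against 7.30%, and 5.50% lower, against 6.92%, and the next bin 6.93% higher, against 10.7%, and 1.66% lower, against 1.44%. The share called higher was thus below that of other peaks in these bins, and in the 2 lower bins of AThi HSCs as well (4.35% against 6.19%, and 2.53% against 3.37%). No test was made of these shares, since peaks are not replicates.

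**Figure D5:**
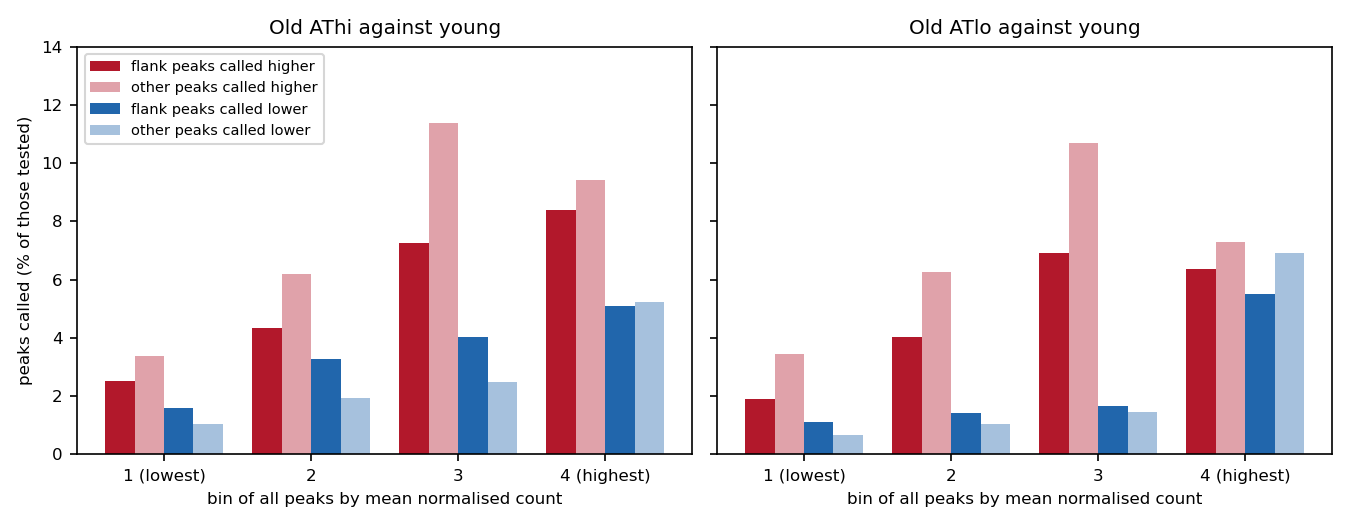
Share of tested peaks called higher (red) and lower (blue) in old AThi (left) and old ATlo (right) against young HSCs, by bin of all peaks ranked on the authors' mean normalised count and split into 4, with flank peaks in full colour and all other peaks in pale colour. In bin 3, 7.27% of flank peaks and 11.4% of other peaks were higher in AThi HSCs.

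Among genes known from HSC ageing, Clu and Matn4 had higher flank peaks in both old fractions. Of 40 such genes 11 had 16 flank peaks. Of these peaks 3 were higher and 1 lower in AThi HSCs, and 4 were higher and 1 lower in ATlo HSCs (medians 0.08 and 0.06). Over all flank peaks 6.18% were higher and 3.76% lower in AThi HSCs, and 5.38% and 2.48% in ATlo HSCs. The difference of this list from all flank peaks was not tested. Clu, which encodes the chaperone clusterin, had a higher peak on both sides: 1.12 (SE 0.21) in AThi and 1.24 (SE 0.21) in ATlo HSCs at 1956 bp downstream, and 1.19 and 1.38 at 2690 bp upstream, in the authors' deposited tables. The Clu promoter peak changed by 0.39 in AThi and 0.40 in ATlo HSCs and did not pass. Matn4, a matrix protein of HSCs, changed by 0.61 in AThi and 0.69 in ATlo HSCs at 2592 bp upstream. That peak lies within the span of Rbpjl, and Matn4 had no promoter peak within 1 kb. Clca3a2, a chloride channel accessory protein named after its values were seen, changed by 1.74 in AThi (did not pass) and 1.80 in ATlo HSCs, at a mean count of 6.68. Ptger4, a prostaglandin E2 receptor, changed by -1.05 in AThi and -0.99 in ATlo HSCs, with its promoter at -0.14 and -0.21. The ageing genes were chosen with earlier results of these libraries known, so their direction is no independent evidence.

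Among the 39 HSC identity genes, 14 had 15 flank peaks, of which 2 were higher and 1 lower in both AThi and ATlo HSCs (medians -0.01 and -0.07). The counts of this list and of the chromatin and Hox lists stand beside the shares of all flank peaks. These were 6.18% higher and 3.76% lower in AThi HSCs, and 5.38% and 2.48% in ATlo HSCs. Hmga2, a chromatin protein of fetal HSCs, changed by 1.31 in AThi and 1.09 in ATlo HSCs at 1008 bp past its start in the authors' deposited tables, Egr1 rose as given above, and Cbfa2t3, a corepressor that keeps HSCs quiescent, changed by -0.50 and -0.58. With the strongest promoters set to 0, the lower calls of Cbfa2t3 and Jarid2 in both old fractions and of Ptger4 in ATlo HSCs were lost. Chromatin regulators had 1 higher and 1 lower of 15 peaks in each: Chd7, a remodeller, changed by 1.54 in AThi and 1.09 in ATlo HSCs, and Jarid2, a Polycomb cofactor, by -0.60 and -0.64. The promoter peaks of Hmga2 (0.71) and Chd7 (0.68) were called higher in AThi HSCs too. In ATlo HSCs each changed by 0.23 and did not pass. The Jarid2 promoter was called lower in both (-0.51 in AThi and -0.68 in ATlo HSCs), and the Cbfa2t3 promoter passed in neither (-0.31 and -0.46). Hox genes had 2 higher of 12 peaks in AThi and 1 in ATlo HSCs, with Hoxb3 at 1.02 and 0.67 and Hoxb9 at 0.81 (passed) and 0.48 (did not), in the authors' deposited tables.

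Genes of autophagy had almost no flank peaks, a difference from other genes that was not tested. Of the 20810 genes with any peak, 4093 had a flank peak. Of 46 genes of the machinery, 1 had one, Sqstm1, the p62 cargo receptor, whose peak 2058 bp upstream did not pass (0.44 in AThi and 0.27 in ATlo HSCs in the authors' deposited table). Of 4 lysosomal flank peaks, Cln3, a lysosomal membrane protein, was higher in both (1.56 in AThi and 1.36 in ATlo HSCs; the peak lies within Apobr), and Mcoln1, a lysosomal calcium channel, in ATlo HSCs alone (1.04 and 1.26). None of the 10 flank peaks of FoxO factors and targets, the 13 of glycolysis genes or the 3 of mitochondrial regulators was called in either, with medians of -0.01, -0.11 and -0.31 in AThi and -0.13, -0.07 and -0.14 in ATlo HSCs. Over all flank peaks 9.95% were called in AThi and 7.87% in ATlo HSCs. With so few peaks per list, the lack of calls does not set these genes apart from other flank peaks.

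The counts of the signalling and lineage lists stand beside 9.95% of all flank peaks called in AThi and 7.87% in ATlo HSCs. Tnfaip3 was the 1 called peak among 9 of the NF-kB list (0.95 in AThi and 1.13 in ATlo HSCs). Of 11 interferon and antigen presentation peaks, Irf5 was lower in both, and Psmb8, an immunoproteasome subunit, in AThi HSCs (-1.60, against -0.80 in ATlo HSCs, which did not pass). Of 8 cytokine signalling peaks 0 were called in AThi HSCs and 1 in ATlo HSCs, at Sh2b3, an adaptor that restrains JAK2 signalling (-0.46 and -0.54). The cell cycle list had 1 lower peak of 10 in AThi HSCs, at Cdk1 (-1.96, against -1.11 in ATlo HSCs, which did not pass), and the TGF-beta, BMP and Wnt list of 16 had Id2 higher in AThi HSCs (0.53) and Lrp5 lower in ATlo HSCs (-0.90). These are values of the authors' deposited tables.

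Lymphoid genes had 1 higher and 3 lower of 21 flank peaks in AThi HSCs and 0 calls in ATlo HSCs. The lower ones were at Bcl11a, a B cell and HSC factor (-0.68 in AThi and -0.35 in ATlo HSCs), Igll1, a surrogate light chain (-1.35 and -0.39), and Notch3 (-1.01 and -0.67) in the authors' deposited tables. None of these differed between AThi and ATlo HSCs. Myeloid genes had 0 calls among 16 in either, megakaryocyte and erythroid genes 1 higher of 12 in AThi and 1 higher and 1 lower in ATlo HSCs, with Gp9, a platelet glycoprotein, at 0.93 and 0.78 and Zfpm1, a GATA1 cofactor, at -0.35 (did not pass) and -0.47. Stromal and endothelial markers had 1 lower of 13 in AThi HSCs, at Stab1 (-0.91), and 0 in ATlo HSCs. Neuronal and synaptic genes had 2 higher of 12 in AThi and 3 in ATlo HSCs, with Grid1, a glutamate receptor family member, at 1.62 and 1.42, Epha7, an ephrin receptor, at 0.71 and 0.52, and Cdh12 at 0.83 and 0.95. The lower calls of Notch3 and Stab1 in AThi HSCs and of Lrp5, Sh2b3 and Zfpm1 in ATlo HSCs were lost with the strongest promoters set to 0. These values too are the authors' deposited ones, and medians of the lymphoid, myeloid and neuronal lists were -0.04, -0.19 and 0.27 in AThi and -0.11, -0.12 and 0.43 in ATlo HSCs.

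MicroRNA genes in the annotation are the short hairpins (median 78 bp), so their flanks often lie in a host gene. Of the 202 tested flank peaks at microRNA genes, 13.9% were called in AThi and 8.91% in ATlo HSCs, against 9.95% and 7.87% of all flank peaks. The share called in both comparisons over all flank peaks was not counted. Of 181 such genes with a flank peak, 13 had one called in both comparisons. Of these 13, 12 matched 20 mature sequences in RefSeq GRCm38.p6, with 20 different seeds and none shared. The mature sequences of 3 well-studied ones are shown because their flanks moved in different directions. They were chosen after their values were seen. Capitals mark the seed, bases 2 to 8.
miR-21a-5p: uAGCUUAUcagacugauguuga
miR-142a-3p: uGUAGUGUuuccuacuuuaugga
miR-33-5p: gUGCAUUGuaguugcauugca

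In the authors' deposited tables the peak 1103 bp past Mir21a, a microRNA of stress and inflammation, was higher (1.39, SE 0.20, in AThi and 1.41, SE 0.20, in ATlo HSCs), as was the one at 2386 bp (0.73 and 0.50), while the 2 upstream peaks within Vmp1 did not pass (0.26 and 0.49, and 0.26 and 0.13). The peak upstream of Mir142, which is specific to blood cells, changed by -0.56 in AThi and -0.70 in ATlo HSCs, and that upstream of Mir33, in its host Srebf2, by -1.02 and -0.83. With the strongest promoters set to 0, both lower calls of Mir142 and the ATlo call of Mir33 were lost.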

How the data were processed

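Each of 3 deposited tables gave 1 comparison for 94410 peaks, with 0 columns of values per library. Trimming with Trim Galore and cutadapt, alignment with BWA, peaks by MACS2, counts by featureCounts, tests by DESeq2 and annotation by ChIPseeker are tools that the submitters' processing notes name, beside the builds GRCm38 and mm39. Versions, duplicate handling, read shifting and peak merging are not given in the sources used here and set which peaks exist and where their edges lie. Per the labels, reads were paired-end of 150 bp. Depth per library is unknown. The mean level per peak is the authors' normalised read count averaged over libraries, a signal value. The log2 fold changes and their SEs are the authors' deposited values, the Wald statistic is their score, and the deposited p-values and adjusted p-values were taken unchanged. Against young HSCs no adjusted p was given for 1831 peaks with a mean level of at most 5.96, 33 of them flank peaks, and these were not called.

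The comparisons with young HSCs and between the old fractions come from 1 fit of the authors, with a difference of at most 1.02e-14 between the changes against young and the direct comparison. The planned count test could not be run, so peaks were called from the authors' adjusted p over all peaks, at under 0.05, with 95% intervals as 1.96 SE. Peak positions are 1-based and taken as mm39, since only 49 of 4088 genes matched in RefSeq GRCm38.p6 ended at the same base. A RefSeq start-site window was found for 2998 of the 4093 genes (73.2%), below the 80% needed, so a check of base composition was void. Alternatives were an adjusted p under 0.01, at least 2-fold, scaling to the strongest promoters (1811 peaks with a mean level of at least 356) or to all peaks, a mean level of at least 10, adjustment over every peak, peaks wholly within the limits and, added after seeing the data, leaving out X and Y.

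Named were the 10 peaks of smallest p in each direction against young HSCs (at least 2-fold where enough passed, 1 per gene, without predicted and microRNA genes), 5 in each direction between the old fractions, up to 4 per gene list, and peaks at the limits. 1 peak that this rule names is not reported here. Of 685 genes in 20 lists, 660 had a peak and 194 a flank peak. Members, lists and the rule were chosen with earlier results of these data known. The shift and adjustment were tested on simulated data. Python 3.11.15, pandas 2.3.3, numpy 2.4.6, scipy 1.17.1 and matplotlib 3.10.9 were used.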

Additional observations from a re-analysis of the deposited data

How the results depend on the processing

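The counts of flank peaks called higher, 294 in old AThi and 256 in old ATlo against young HSCs, kept within 1.5 times their value at an adjusted p under 0.01 (212 and 188), and the 179 and 118 lower calls did not (75 and 41). At least 2-fold changes numbered 183 higher and 90 lower in AThi and 164 higher and 39 lower in ATlo HSCs. With the strongest promoters set to 0, AThi HSCs had 542 higher and 72 lower and ATlo HSCs 679 higher and 23 lower calls; the number of lower calls is thus set by the scaling. Among peaks wholly within 1 to 3 kb, the ATlo lower calls numbered 78, with 3706 peaks in place of 4788. A minimum level, adjustment over every peak, the median of all peaks at 0 and leaving out X and Y kept every one of these counts within 1.5 times, and AThi against ATlo stayed at 0 under every alternative run. Of 176 called values of named peaks, 31 were no longer called with the strongest promoters at 0, 6 with the median of all peaks at 0, 43 at an adjusted p under 0.01 and 68 at 2-fold; none of the 176 changed sign under either scaling. No paired analysis was possible because the tables hold no values per library, so the replicate block, leaving out a replicate, other size factors and a filter on counts were not run. The depth behind each library is unknown.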

Other observations

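The flank peak with the highest mean normalised count in the authors' deposited tables (5025) lay 1143 bp into a gene on chromosome 17, beside a promoter peak of 17296. That gene had no symbol in the RefSeq gene set used here, so what it encodes is not given. The peak did not differ from young HSCs (log2 0.40 in AThi and 0.31 in ATlo HSCs). The next was at Zfp36, an RNA-binding protein that destabilises cytokine mRNAs (788), with 0.37 in AThi and 0.32 in ATlo HSCs, neither called. Espn and Foxp1 had 4 flank peaks each, as Mir21a did, and none of theirs was called in either comparison with young HSCs, although the promoter peak of Espn, an actin-bundling protein, was higher in both (0.72 in AThi and 0.52 in ATlo HSCs) in the authors' deposited tables. By chromosome, between 5.36% (chromosome 17) and 13.6% (chromosome 12) of flank peaks were called in AThi against young HSCs, and between 4.46% (chromosome 17) and 11.9% (X) in ATlo against young HSCs. Of all peaks on the same chromosomes, 8.77% (17) and 11.2% (12) were called in AThi and 7.84% (17) and 7.41% (X) in ATlo HSCs. The X share in ATlo HSCs rests on 4 higher and 8 lower calls among 105 flank peaks. No difference between chromosomes was tested. Further microRNA flanks in host genes were higher in both in the authors' deposited tables, at Mir7018 in Hspg2 (1.89 in AThi and 1.74 in ATlo HSCs), Mir378a in Ppargc1b (1.78 and 1.38) and Mir511 in Mrc1 (1.47 and 1.55), among others. Those at Mir6907 in Rrp1 (-2.18 in AThi and -1.33 in ATlo HSCs) and Mir7681 in Hecw2 (-0.57 and -0.65) were lower in both. Both lower calls of Mir7681 were lost with the strongest promoters set to 0. These microRNA genes were named after their values were seen.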
